A study of Mus musculus with 13 samples.

Results

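The SLC25 family of mitochondrial carriers was followed through all libraries of a mouse RNA-seq study. Every gene whose symbol starts with Slc25a was taken as a member, which gave 44 of the 22609 genes of each deposited table. SLC25 proteins are small membrane proteins, most of them in the inner mitochondrial membrane, where each moves one kind of metabolite, cofactor or ion between the cytosol and the matrix. They feed fuels to the respiratory chain, export citrate for fatty acid synthesis, exchange ADP for ATP and supply the matrix with phosphate, iron and coenzymes. In white fat the family is best known for the citrate and dicarboxylate carriers, which connect mitochondrial metabolism to lipid and glyceride synthesis, and in brown fat for the uncoupling proteins, relatives that carry other symbols.

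All animals were of the C57BL/6 strain, and the study compared wild-type (WT) mice with mice lacking PD-L1, the product of Cd274, specifically in fat (KO). Visceral fat was taken after HFD (high-fat diet) feeding and gave 3 WT and 4 KO libraries. E0771 tumours, grown from a transplanted mouse mammary cancer line, gave 3 libraries from WT and 3 from KO hosts. The tumour cells themselves were not described as edited, so KO names the host there. The promoter that drove the deletion, the age and sex of the mice, the diet of the tumour hosts and whether a library came from 1 animal were not given in the sources used here. Each p-value is therefore set by the spread among the libraries at hand, which may in part be technical. WT fat libraries are named WT1, WT3 and WT4, after the columns of the deposited table.

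The fat libraries held 29362788 to 41534662 gene reads and the tumour libraries 22834259 to 34706555. Cd274 overlapped between the groups of fat and did not pass, with 504.1, 738.6 and 527.9 in WT and 521.1 to 563.8 in libraries labelled KO (log2 fold change -0.10, SE 0.15, limma adjusted p = 0.66), so each direction in fat is that of the libraries labelled KO. Adipocyte genes were abundant in all fat libraries, with Adipoq, which encodes the hormone adiponectin, at 100179 to 126791 in WT and at 18358 to 31684 in KO fat. Cell type markers differed between the groups of fat. The summed level of 16 adipocyte markers was 1673048 to 1906544 in WT and 636017 to 864416 in KO libraries, and 14 of the 16 fell. The sum of 15 macrophage markers was 68011 to 225701 in WT and 445261 to 658800 in KO libraries, and 14 of the 15 rose. All 10 endothelial markers fell, and 4 of 8 mesothelial markers fell. Markers of spermatids and epididymis, which can lie next to visceral fat in males, summed to 905, 290.5 and 67.02 in WT1, WT3 and WT4. Their sums in KO libraries were 2.158 to 12.14. Only 1 of these 12 markers, Prm2, could be tested, and it fell. A test needed a value of 10 in 3 libraries. Prm2 could reach this only with WT libraries, so its fall is no separate result. Skeletal muscle markers summed to 1314, 1013 and 550.6 in WT and 323.5 to 503.4 in KO libraries, with 1 of 5 tested higher and 1 lower. No adipocyte, macrophage, endothelial or mesothelial marker in the table was at 0. In bulk tissue, fewer cells of a type and less RNA per cell cannot be told apart, and the part of these markers in the results on the carriers was not tested.

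Before the values, the 250 bases upstream of the start site are shown for 4 members from the RefSeq table of GRCm38.p6, which held 34 of the 44 members. Slc25a1 and Slc25a10 are shown because they had the highest levels per kb of exon in WT fat, and Slc25a12 and Slc25a13 because they are a closely related pair with unlike values in fat. Capitals mark the E-box CACGTG, the Sp1 box GGGCGG and the CCAAT box on either strand, so CCGCCC and ATTGG are their reverse complements. The sequences run 5′ to 3′ on the strand of the gene and lie at chr16:17928220-17928469 (minus), chr11:120491587-120491836 (plus), chr2:71367756-71368005 (minus) and chr6:6217174-6217423 (minus).
Slc25a1: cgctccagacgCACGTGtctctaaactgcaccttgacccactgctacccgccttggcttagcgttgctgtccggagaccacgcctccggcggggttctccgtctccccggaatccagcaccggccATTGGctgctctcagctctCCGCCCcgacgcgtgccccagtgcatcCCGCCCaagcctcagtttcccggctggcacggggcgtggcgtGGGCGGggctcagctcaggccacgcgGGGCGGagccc
Slc25a10: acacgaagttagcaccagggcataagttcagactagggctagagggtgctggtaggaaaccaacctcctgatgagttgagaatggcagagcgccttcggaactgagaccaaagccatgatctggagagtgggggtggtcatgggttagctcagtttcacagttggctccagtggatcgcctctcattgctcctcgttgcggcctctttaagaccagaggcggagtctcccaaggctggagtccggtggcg
Slc25a12: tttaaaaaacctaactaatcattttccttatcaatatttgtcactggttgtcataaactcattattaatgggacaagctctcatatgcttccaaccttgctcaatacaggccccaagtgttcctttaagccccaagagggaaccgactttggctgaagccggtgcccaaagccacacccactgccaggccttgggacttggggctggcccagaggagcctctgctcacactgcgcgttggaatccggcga
Slc25a13: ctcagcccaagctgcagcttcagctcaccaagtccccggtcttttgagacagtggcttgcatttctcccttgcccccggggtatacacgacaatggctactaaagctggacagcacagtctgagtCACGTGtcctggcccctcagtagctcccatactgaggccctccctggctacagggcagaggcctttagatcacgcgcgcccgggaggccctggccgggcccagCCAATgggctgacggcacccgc
Slc25a1 held 1 E-box, 4 Sp1 boxes and 1 CCAAT box in this window, and Slc25a13 held 1 E-box and 1 CCAAT box. None of these letters was present in the windows of Slc25a10 and Slc25a12. Over all members with a promoter, 7 of 34 held CACGTG, against 6.86% of all genes with a promoter and 6.02% of 32851 promoters of the same length. The Sp1 box was in 24 of 34 members, 35.4% of genes and 32.7% of promoters, and CCAAT in 17 of 34 members, 37.5% of genes and 33.8% of promoters. A further motif, AAGGTCA, which estrogen-related receptors bind, was in 1 of 34 members, 4.7% of genes and 4.08% of promoters. Of the 6 members with a promoter that rose in fat, 1 held the E-box and 3 the Sp1 box, and of the 7 that fell, 2 held the E-box and 4 the Sp1 box. The member promoters were richer in G and C, with a median of 56.8% over 43 promoters of 34 genes against 52.4% over all. Both strands were searched, no motif is contained in another, and a match is a string of letters and not a shown binding site.

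In visceral fat the carriers split, with 10 members lower and 7 higher in libraries labelled KO. Those that fell included the citrate carrier Slc25a1, the dicarboxylate carrier Slc25a10, the ornithine carrier Slc25a15 and the ADP/ATP carrier Slc25a4. Those that rose included both aspartate/glutamate carriers, Slc25a12 and Slc25a13, and the iron carrier Slc25a37. Of the 44 members 38 reached 10 in 3 libraries or more and were tested by limma on log2(value + 1). A member was called at an adjusted p under 0.05, which 44.7% of these 38 reached, against 34.2% of all 14455 genes tested. By direction, 16.8% of all genes were higher and 17.4% lower. The median log2 fold change, KO minus WT, was -0.28 over the tested members and 0 over all genes, with 25 members below 0 and 13 above. The KO and WT libraries did not overlap for 20 of the 38, and for 43.7% of all genes. KO lay below WT for 12 members and for 22.1% of all genes, and above for 8 members and 21.6%. An unadjusted p under 0.05 was reached by 26 members and by 45.4% of all genes.

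**Figure D1:**
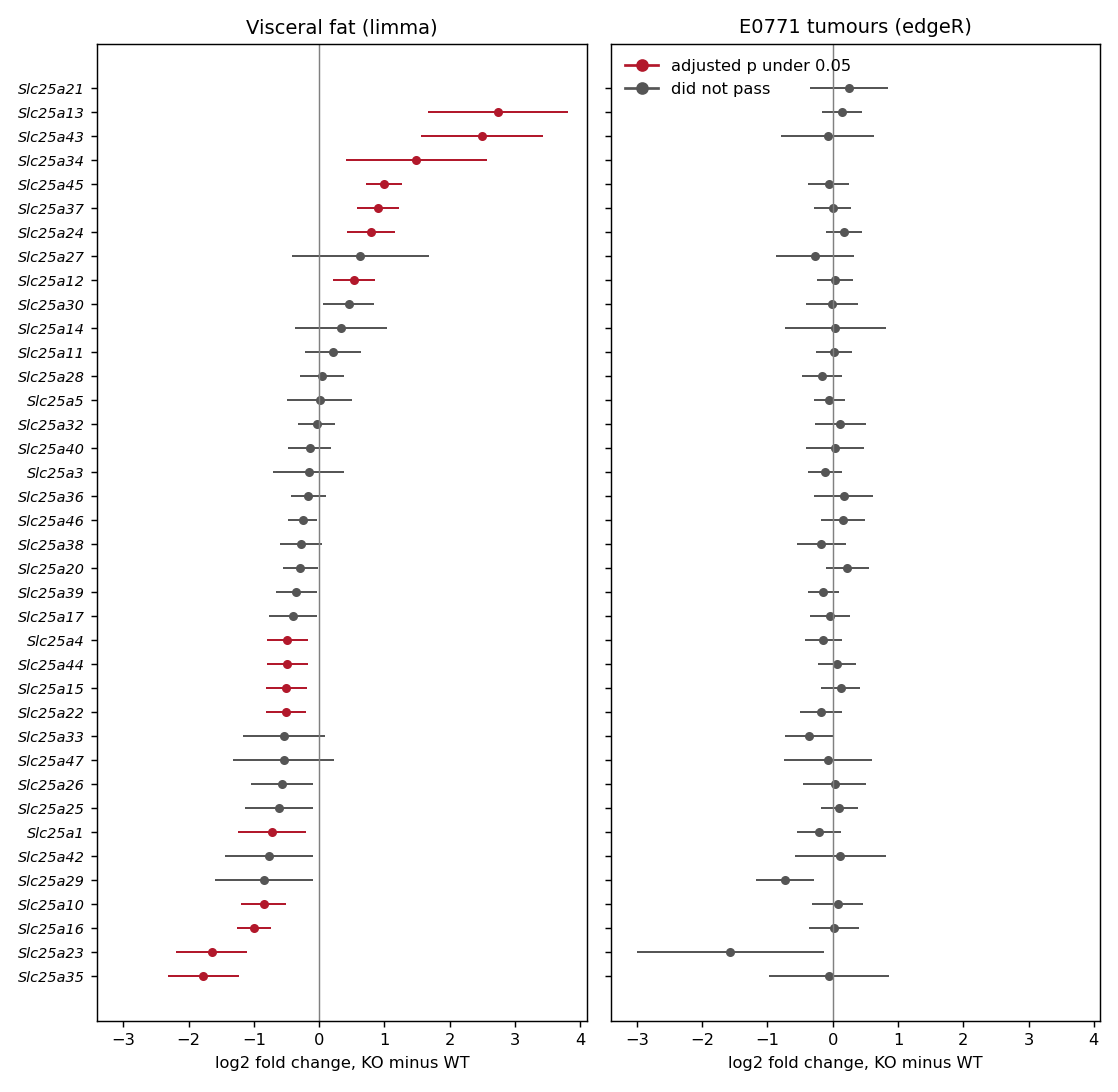
Log2 fold change, KO minus WT, of each Slc25a gene tested and reported in visceral fat (left, limma) and E0771 tumours (right, edgeR), with points for the estimate, lines for its 95% confidence interval and red for an adjusted p under 0.05. In fat 7 genes lie to the right and 9 to the left in red, and in tumours no gene is red.

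The carriers that move citrate and dicarboxylates out of mitochondria were lower in fat labelled KO. Slc25a1 exports citrate, the source of cytosolic acetyl-CoA for fatty acid synthesis, and lies on chromosome 16 (17925223 to 17928219, minus strand). Its value was 10979, 9518 and 10096 in WT libraries and 6182, 4215, 8672 and 6380 in libraries KO1 to KO4. Every KO library lay under every WT library, and KO3 came nearest. The mean fell from 10197 ± 736 (SD, n = 3) to 6362 ± 1820 (SD, n = 4), a log2 fold change of -0.72 (SE 0.22, limma adjusted p = 0.0342). This call was lost on leaving out KO1, KO2, KO4, WT1, WT3 or WT4, with adjusted p of 0.0548 to 0.0794. Slc25a10 exchanges malate and succinate for phosphate and lies on chromosome 11 (120491840 to 120499187, plus strand). It stood at 12818, 11432 and 12335 in WT and at 6367, 5977, 8431 and 6485 in KO libraries, again with no overlap and with KO3 highest of the KO libraries. Its log2 fold change was -0.85 (SE 0.14, limma adjusted p = 0.00342). Slc25a11, which exchanges oxoglutarate for malate, did not pass and had overlapping groups, with 2261 to 2577 in WT and 2239 to 3766 in KO libraries. The oxodicarboxylate carrier Slc25a21 was at 0 to 14.44 in all 7 libraries and was not tested.

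The enzymes around citrate export were lower as well, as 11 of the 12 tested genes of the route from pyruvate and citrate to cytosolic acetyl-CoA fell and none rose. Their median log2 fold change was -0.98. The 3 of smallest p were malic enzyme Me1 at -1.27, the acetyl-CoA synthetase Acss2 at -1.39 and pyruvate carboxylase Pcx at -1.53, with limma adjusted p of 0.00152, 0.00213 and 0.00218. Over the same libraries the ratio of Slc25a10 to Slc25a11 per kb was 2.72 to 3.48 in WT and 1.04 to 2.31 in KO fat.

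All 3 tested carriers of aspartate and glutamate passed, of which the aspartate/glutamate carriers Slc25a13 and Slc25a12 rose and the glutamate carrier Slc25a22 fell. Slc25a13, named citrin, exports aspartate from mitochondria for the malate-aspartate shuttle and lies on chromosome 6 (6041218 to 6217173, minus strand). It had 438.7, 100.8 and 120.6 in WT and 1296, 1413, 875.3 and 1176 in KO libraries. The KO libraries were all above WT, and WT1 stood over 3 times above the other WT libraries. Its log2 fold change of 2.74 (SE 0.46, 95% interval 1.68 to 3.79) was the highest of the family in fat (limma adjusted p = 0.00331). Over 12 alternative fits it ran from 2.34 without WT3 to 3.40 without WT1. WT1 was also highest of the WT libraries in summed macrophage markers, at 225701 against 111935 in WT3 and 68011 in WT4. It was highest too in the sums of spermatid and epididymis markers and of skeletal muscle markers. These sums fell in the order WT1, WT3 and WT4, whereas Slc25a13 was lowest in WT3. Whether the marker levels bear on Slc25a13 was not tested. Slc25a12, named aralar, does the same exchange and lies on chromosome 2 (71271063 to 71367749, minus strand). Its value was 656.4, 600.7 and 630.0 in WT and 1096, 919.1, 815.3 and 844.5 in KO libraries, a log2 fold change of 0.54 (SE 0.13, limma adjusted p = 0.0155). That call was lost without WT3 (adjusted p = 0.0667).

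The relative level of this pair is given by their ratio in each library. Per kb of exon, Slc25a13 stood at 1.29, 0.324 and 0.37 times Slc25a12 in WT fat and at 2.29, 2.97, 2.08 and 2.69 times in KO fat. In the 6 tumours the same ratio was 2.37 to 3.07. Slc25a22, a glutamate carrier on chromosome 7 (141429744 to 141437892, minus strand), was lower, with 2070, 1811 and 2385 in WT and 1480, 1409, 1601 and 1351 in KO libraries. The groups did not overlap, and the log2 fold change was -0.51 (SE 0.13, limma adjusted p = 0.0149). The second glutamate carrier, Slc25a18, was at 0 to 17.53 and was not tested. Among 6 genes of the malate-aspartate and glycerol phosphate shuttles 1 rose and 3 fell, with a median log2 fold change of -0.51. The cytosolic transaminase Got1 rose by 1.14 on the log2 scale (limma adjusted p = 0.00303). Glycerol phosphate dehydrogenase Gpd2 fell by 1.006 and malate dehydrogenase Mdh1 fell by 0.84 (limma adjusted p = 0.00208 and 0.00963).

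**Figure D2:**
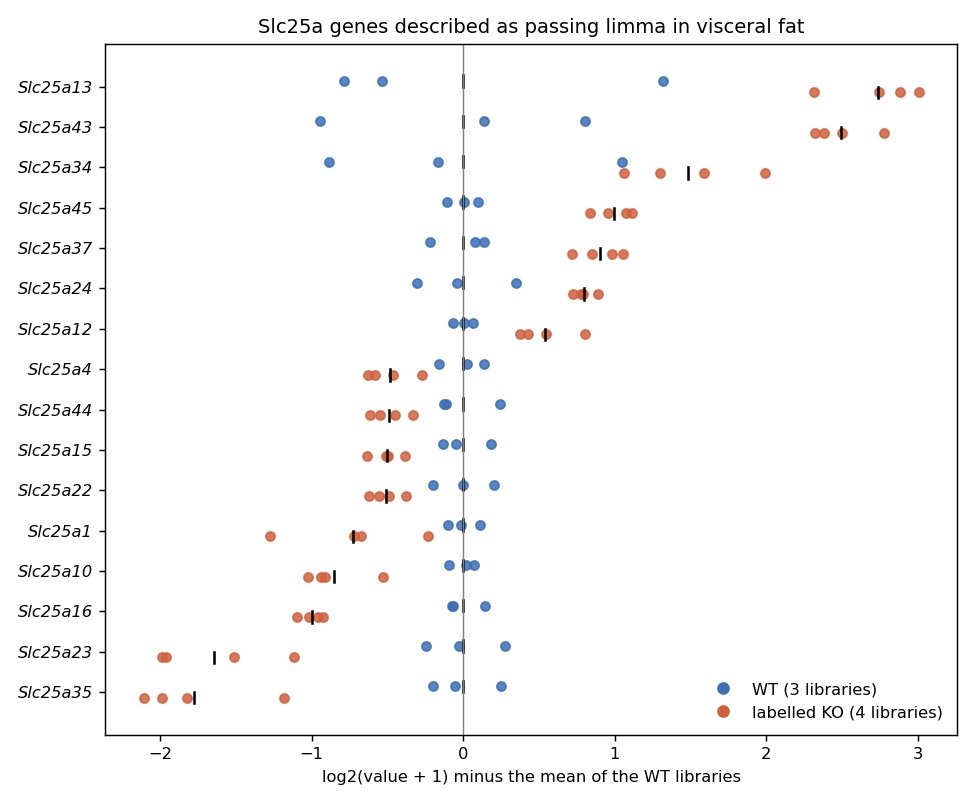
Each fat library's log2(value + 1) minus the mean of the WT libraries, for 16 Slc25a genes that passed limma, with 3 WT libraries in blue, 4 libraries labelled KO in orange and a black tick at each group mean. KO points lie right of all WT points for the upper 7 genes and left of them for the lower 9, and the WT points of Slc25a13, Slc25a43 and Slc25a34 are the most spread.

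Of the carriers of adenine nucleotides and phosphate, 2 fell, 1 rose and 3 did not pass. Slc25a4, named ANT1, exchanges ADP for ATP and lies on chromosome 8 (46206797 to 46211284, minus strand). It had 7011, 7970 and 8619 in WT and 6496, 5681, 5241 and 5072 in KO libraries. The groups lay close together without overlapping, at a log2 fold change of -0.49 (SE 0.13, limma adjusted p = 0.0222). This call was lost without KO2, KO3, KO4, WT3 or WT4, at adjusted p of 0.0521 to 0.0834. Its paralogue Slc25a5, named ANT2, had overlapping groups, with 3170 to 3659 in WT and 2612 to 4892 in KO libraries and a log2 fold change of 0.01 (95% interval -0.47 to 0.49). The phosphate carrier Slc25a3 also overlapped, with 6862 to 9627 in WT and 5886 to 10819 in KO libraries (-0.16, SE 0.23). KO1 was the highest KO library for Slc25a3, Slc25a4 and Slc25a5. Processed copies of Slc25a5 exist in the genome, so reads of this gene may have been divided or dropped in counting.

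The calcium-regulated carriers of ATP-Mg and phosphate set the pool of adenine nucleotides in the matrix, and their members moved apart. Slc25a23 lies on chromosome 17 (57043711 to 57059863, minus strand) and stood at 2688, 3130 and 3858 in WT and 802.5, 817.7, 1472 and 1116 in KO libraries. All KO values lay well under the lowest WT value, and the log2 fold change was -1.65 (SE 0.23, limma adjusted p = 0.00183). Slc25a24, on chromosome 3 (109123149 to 109168457, plus strand), stood at 2195, 1672 and 1396 in WT and 2986, 3201, 2845 and 2956 in KO libraries. Here the KO values lay in a narrow band above WT, and the log2 fold change was 0.80 (SE 0.15, limma adjusted p = 0.00563). The ratio of Slc25a24 to Slc25a23 per kb was 0.558 to 1.26 in WT fat and 2.98 to 6.04 in KO fat. Slc25a25, the third of this kind, did not pass (-0.61, SE 0.22, limma adjusted p = 0.063) and overlapped. Slc25a41 was at 0 in all 13 libraries of both tissues, and the germ cell ADP/ATP carrier Slc25a31 was at 0.8603 to 3.312 in fat.

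Among 15 genes of ATP synthase, which uses the ADP and phosphate these carriers bring in, 2 fell and none rose. The share that fell, 13.3%, was under the 17.4% of all genes tested in fat. The median log2 fold change was -0.35. Those of smallest p were Atp5c1 at -0.45 and Atp5b at -0.60, which fell, and Atp5g3 at -0.64, which did not pass (limma adjusted p = 0.0234, 0.0271 and 0.0578). Letm1, an inner membrane exchanger linked to calcium and potassium, fell by 0.58 on the log2 scale (limma adjusted p = 0.00466). Of 15 genes for mitochondrial protein import and outer membrane porins, 1 rose (6.67%, against 16.8% of all genes) and none fell, with a median of -0.06. This was the porin Vdac2 (0.60, limma adjusted p = 0.0464), followed in p by the import genes Timm50 (-0.41) and Timm8b (-0.33), which did not pass.

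Slc25a16, a carrier tied to coenzyme A in the matrix, had the smallest p of the family. It lies on chromosome 10 (62920633 to 62946498, plus strand) and had 1887, 1898 and 2193 in WT and 1023, 928.9, 1044 and 981.6 in KO libraries. The KO values spanned a narrow range far under WT, at a log2 fold change of -1.0 (SE 0.11, limma adjusted p = 0.000982). Neither of the other coenzyme A carriers passed. Slc25a42, which brings coenzyme A into the matrix, had 636.6 to 1396 in WT and 428.3 to 762.7 in KO libraries (-0.77, limma adjusted p = 0.071). The peroxisomal member Slc25a17 had 1982 to 2360 and 1443 to 2146 (-0.40, limma adjusted p = 0.0747).

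Among carriers of carnitine and amino acids, Slc25a45 rose while Slc25a15 and Slc25a44 fell. Slc25a45, a less studied member grouped with the carnitine and basic amino acid carriers, lies on chromosome 19 (5877808 to 5885878, plus strand). It had 757.9, 711.2 and 655.8 in WT and 1531, 1491, 1262 and 1373 in KO libraries. Both groups were tight and far apart, at 1.99 times the fitted WT level (log2 fold change 0.995, SE 0.12, limma adjusted p = 0.00115). The carnitine/acylcarnitine carrier Slc25a20, which admits fatty acids for oxidation, did not overlap between groups but did not pass, with 2528, 2557 and 2895 in WT and 2275, 2349, 2108 and 1964 in KO libraries (-0.29, SE 0.11, limma adjusted p = 0.0712). Per kb, Slc25a45 stood at 0.397 to 0.526 times Slc25a20 in WT and at 1.05 to 1.23 times in KO fat.

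Slc25a15, the ornithine carrier of the urea cycle, lies on chromosome 8 (22375551 to 22398597, minus strand). It had 591.0, 554.7 and 691.9 in WT and 432.7, 392.7, 428.5 and 467.6 in KO libraries (log2 fold change -0.51, SE 0.13, limma adjusted p = 0.0194). Without KO2 or WT4 the adjusted p was 0.0591 or 0.0583. Slc25a44, a carrier of branched-chain amino acids on chromosome 3 (88410498 to 88425139, minus strand), had 2190, 2208 and 2833 in WT and 1637, 1749, 1900 and 1560 in KO libraries. For both genes the KO libraries lay under all WT libraries, and WT4 was the highest library. Slc25a44 had a log2 fold change of -0.49 (SE 0.13, limma adjusted p = 0.0213), lost without KO2, KO4 or WT4 (adjusted p of 0.0506 to 0.0631). Slc25a29, a carrier of basic amino acids, did not pass (-0.85, SE 0.32, limma adjusted p = 0.073), nor did Slc25a47 (-0.54, SE 0.33). Slc25a2 and Slc25a48 were at 0.9079 to 12.37 in fat and were not tested.

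The enzymes that use what these carriers bring in were mostly lower. Of 17 tested genes of branched-chain amino acid breakdown 16 fell and none rose, with a median log2 fold change of -1.20, beside -0.49 for the carrier Slc25a44. The 3 of smallest p were methylmalonyl-CoA mutase Mut at -1.28, the branched-chain dehydrogenase subunit Dbt at -1.33 and propionyl-CoA carboxylase Pcca at -1.27, with limma adjusted p of 0.000709, 0.000982 and 0.00101. Of 14 genes of the carnitine shuttle and beta-oxidation 9 fell and 1 rose, with a median of -0.44, beside -0.29 for Slc25a20. Those of smallest p were Echs1 at -1.21, Cpt2 at -0.84 and Hadh at -0.90 (limma adjusted p = 0.0032, 0.00326 and 0.00343). The 1 that rose was Cpt1a, the outer carnitine palmitoyltransferase, named here after its value was seen (0.44, limma adjusted p = 0.0344).

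Of the carriers of iron, glycine and glutathione only Slc25a37 passed. Slc25a37, named mitoferrin 1, brings iron into the matrix and lies on chromosome 14 (69241848 to 69285112, minus strand). It had 1276, 1327 and 1039 in WT and 1987, 2507, 2174 and 2387 in KO libraries, with no overlap and a log2 fold change of 0.90 (SE 0.13, limma adjusted p = 0.0021). Its paralogue Slc25a28, mitoferrin 2, overlapped, with 946.0 to 1349 in WT and 1080 to 1147 in KO libraries (0.04, SE 0.14). The ratio of Slc25a37 to Slc25a28 per kb was 0.48 to 0.873 in WT and 1.12 to 1.37 in KO fat. The glutathione carriers Slc25a39 (-0.35, limma adjusted p = 0.066) and Slc25a40 (-0.14) and the glycine carrier Slc25a38 (-0.28) did not pass.

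Slc25a37 is strongly expressed in red cell precursors, so their markers were counted. Of 4 tested markers 1 rose and 1 fell, and the sum was 841.3 to 1402 in WT and 796.1 to 1230 in KO libraries. The 4 globin genes in the table, Hba-a1, Hba-a2, Hbb-b1 and Hbb-b2, were listed at 0 in every library of both tissues. Whether reads of these genes were counted at all cannot be told, so the zeros are not read as absence of red cells. Of 17 genes of haem and iron-sulphur assembly 3 rose and 8 fell, with a median log2 fold change of -0.49. The 3 of smallest p were the haem synthesis enzyme Alad, which fell by 1.24, the haem-degrading enzyme Hmox1, which rose by 1.87, and the synthesis enzyme Cpox, which rose by 0.56 on the log2 scale. Their limma adjusted p were 0.00379, 0.00637 and 0.00854.

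The carriers of S-adenosylmethionine, folate and pyrimidine nucleotides described here had estimates below 0 and did not pass. The S-adenosylmethionine carrier Slc25a26 had 332.9, 514.6 and 562.0 in WT and 359.9, 306.4, 300.5 and 275.1 in KO libraries, with an overlap through WT1 (-0.57, SE 0.20, limma adjusted p = 0.0603). Slc25a32, which carries folate, stood at 531.6 to 636.8 in WT and 534.3 to 571.4 in KO libraries (-0.04, SE 0.12). The pyrimidine nucleotide carriers Slc25a33 (-0.54, SE 0.27) and Slc25a36 (-0.17, SE 0.11) did not pass. Of 13 tested genes listed as partners of these carriers 2 rose and 1 fell (23.1% together, against 34.2% of all genes), with a median of -0.19. The folate enzyme Aldh1l1 fell by 1.51, while the folate enzyme Mthfd1l rose by 0.91 on the log2 scale (limma adjusted p = 0.00144 and 0.0141).

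None of the 3 members that resemble uncoupling proteins passed. Slc25a30 had 688.2, 579.1 and 619.7 in WT and 726.3, 1099, 768.1 and 892.9 in KO libraries, all KO values being above WT (0.46, SE 0.16, limma adjusted p = 0.0607). Slc25a14 (0.34, SE 0.30) and Slc25a27 (0.63, SE 0.45) overlapped between groups. Relatives that carry other symbols in the tables are not counted as members, and of 7 tested 2 rose and 2 fell. Ucp2, an uncoupling protein abundant in immune cells, had 18483, 13504 and 7777 in WT and 39841, 44239, 33774 and 40863 in KO libraries (log2 fold change 1.66, limma adjusted p = 0.0032). Ucp3 had 1293, 1430 and 1605 in WT and 422.8, 323.6, 634.7 and 434.3 in KO libraries (-1.70, limma adjusted p = 0.00138). Ucp1, which makes heat in brown fat, was at 2.062 to 3.913 in WT and 9.079 to 30.91 in KO libraries, low in both (2.19, SE 0.55, limma adjusted p = 0.016). All WT values of Ucp1 lay under the value needed for a test, which it could reach only with KO libraries. Its rise, counted among the 2 above, is therefore no separate result. Mtch2, an outer membrane relative, fell by 0.67 on the log2 scale (limma adjusted p = 0.00395), and Mtch1 (-0.16), Mcart1 (-0.16) and Mcart6 (-0.74, limma adjusted p = 0.0558) did not pass.

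Among members without an assigned substrate, Slc25a35 had the lowest and Slc25a43 the second highest fold change of the family. Slc25a35 lies on chromosome 11 (68968131 to 68974365, plus strand) and had 1203, 1089 and 1483 in WT and 352.1, 289.1, 549.3 and 314.4 in KO libraries. The highest KO value was under the lowest WT value, at a log2 fold change of -1.77 (SE 0.23, limma adjusted p = 0.00145). Its exons share 1151 bases (31.3%) with Rangrf on the opposite strand, which was listed at 0 in all 13 libraries. Whether counting used strand is not given in the sources used here, so reads of the pair cannot be told apart. Slc25a43, on the X chromosome (36743659 to 36777202, plus strand), had 30.11, 18.59 and 8.249 in WT and 91.62, 120.8, 88.07 and 99.77 in KO libraries. It was low in both groups, and the log2 fold change of 2.50 (SE 0.40, limma adjusted p = 0.0028) rests on WT libraries with few reads. Slc25a34, on chromosome 4 (141618824 to 141623821, minus strand), was lower still, with 10.32, 17.61 and 42.28 in WT and 61.82, 81.99, 42.67 and 50.39 in KO libraries. The highest WT and the lowest KO value nearly met, and its call (1.49, SE 0.47, limma adjusted p = 0.0381) was lost in edgeR on recovered reads and without KO1, KO2, KO4, WT1 or WT3 (adjusted p of 0.0648 to 0.113). Slc25a46, an outer membrane protein linked to mitochondrial shape, had 2839, 2776 and 2652 in WT and 2364, 2373, 2304 and 2211 in KO libraries. These groups did not overlap, but the change was small and did not pass (-0.25, SE 0.09, limma adjusted p = 0.0648).

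The members are scattered over the genome, with 3 pairs of neighbours among them. Slc25a43 and Slc25a5 lie 18448 bases apart on the X chromosome, and Slc25a43 rose in fat labelled KO while Slc25a5 had overlapping groups. Slc25a23 and Slc25a41 lie 2056 bases apart on chromosome 17, and Slc25a41 was at 0 in every library. Slc25a29 and Slc25a47 lie 162 bases apart on chromosome 12, head to head on opposite strands. In fat Slc25a29 had 52.48, 115.4 and 119.6 in WT and 59.61, 45.31, 47.21 and 47.36 in KO libraries, while Slc25a47 had 46.45, 52.83 and 98.99 in WT and 52.99, 44.23, 30.87 and 45.35 in KO libraries. WT1 was the lowest WT library for both and lay within the KO range of both.

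Within the fat labelled KO the libraries were ordered alike for many members. KO3 was the highest KO library for 8 of the 10 members that fell and for 56.5% of all genes that fell. It was the lowest KO library for 6 of the 7 that rose and for 56.4% of all genes that rose. KO3 also had the highest summed adipocyte markers of the KO libraries, 864416 against 636017 to 765032, and the lowest macrophage sum, 445261 against 553361 to 658800. Among the WT libraries WT1 was highest for 5 of the 7 members that rose, against 74.4% of all genes that rose. Leaving out KO2 reduced the members called lower from 10 to 6. The calls of 11 members held under every alternative tried, among them Slc25a10, Slc25a13, Slc25a16, Slc25a22, Slc25a23, Slc25a24, Slc25a35, Slc25a37, Slc25a43 and Slc25a45.

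Divided by the length of their exons, the members of WT fat spanned a wide range, led by carriers of citrate, dicarboxylates and ADP/ATP. The mean normalised reads per kb in WT fat were 4712 for Slc25a1, 3530 for Slc25a10, 3343 for Slc25a4, 2069 for Slc25a39, 2026 for Slc25a5 and 1532 for Slc25a3. In KO fat the order was Slc25a1 at 2940, Slc25a4 at 2389, Slc25a5 at 2098, Slc25a10 at 1973 and Slc25a39 at 1625. The KO ranges of these 5 overlapped in part, as the plot of levels per kb shows. In tumours of WT hosts Slc25a4 led at 6670 reads per kb, followed by Slc25a39 at 5729, Slc25a3 at 2800, Slc25a5 at 2700, Slc25a24 at 1735 and Slc25a11 at 1392. Slc25a1 and Slc25a10 ranked 13 and 12 there, at 383.7 and 424.0. The tables of the tissues were normalised apart, so a level cannot be set across them. Lengths are unions of annotated exons, retained introns included, so levels per kb are approximate. Together the members held 0.238% to 0.267% of the gene reads in WT fat, 0.198% to 0.228% in KO fat and 0.286% to 0.331% in tumours.

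**Figure D3:**
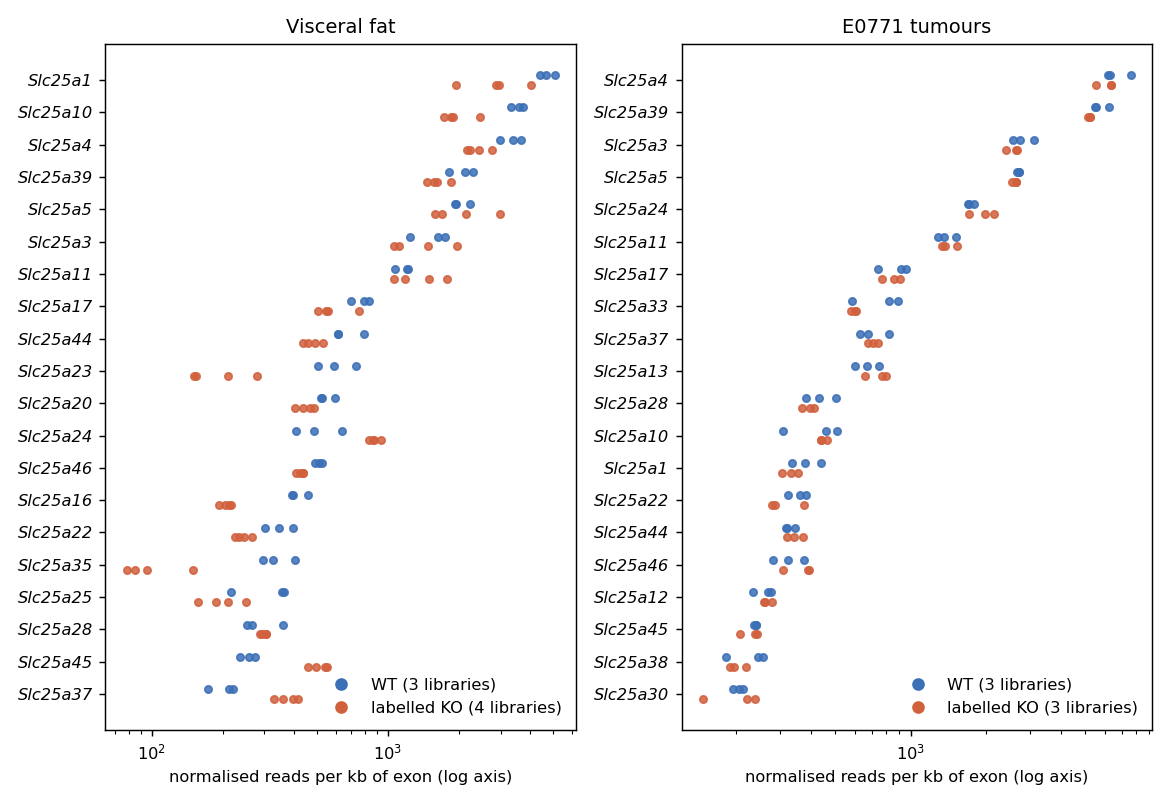
Normalised reads per kb of exon (log axis) in each library for 20 of the Slc25a genes with the highest WT means in visceral fat (left) and E0771 tumours (right), with WT libraries in blue and libraries labelled KO in orange. In fat Slc25a1 and Slc25a10 lead in WT and lie lower in KO libraries, and in tumours Slc25a4 and Slc25a39 lead with WT and KO points close together.

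In E0771 tumours no member differed between WT and KO hosts by edgeR's quasi-likelihood test. Of 44 members 38 were tested, 0 passed, and 3 had an unadjusted p under 0.05, against 0% and 6.9% of 13109 genes. DESeq2 also called 0 members, and 51 genes in all. The median log2 fold change was -0.002 over the members and 0.004 over all genes. KO libraries lay above WT for 1 member and below for 4, against 5.68% and 4.93% of all genes (10.6% together). Tumours expressed Vim at 196040 to 219951 and Krt8 at 8441 to 10313 normalised reads, while Epcam was at 22.45 to 81.55, and the adipocyte marker Adipoq was at 0 to 6.507.

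The 5 members of smallest p in tumours were Slc25a29, Slc25a23, Slc25a33, Slc25a20 and Slc25a24. Slc25a29, the carrier of basic amino acids on chromosome 12 (108825873 to 108835883, minus strand), had 248.2, 234.9 and 272.4 normalised reads in WT hosts and 143.3, 137.6 and 174.0 in KO hosts. Its groups did not overlap, but the log2 fold change of -0.73 (SE 0.20) did not pass after adjustment (edgeR adjusted p = 0.511). Slc25a23 had 11.82, 27.69 and 74.37 in WT and 11.80, 16.56 and 10.10 in KO hosts. One WT tumour, number 3, carried most of that difference, since the log2 fold change was -1.57 with it and -0.63 without it (edgeR adjusted p = 0.705 with it). Slc25a33 had 1552, 1681 and 1102 in WT and 1141, 1092 and 1136 in KO hosts (-0.36, edgeR adjusted p = 0.713). The groups of Slc25a33 overlapped through the same WT tumour. Slc25a20 (0.23) and Slc25a24 (0.17) overlapped as well, with edgeR adjusted p of 0.8 and 0.815.

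The levels of the carriers were also summed by role in the tumours, with no test of the sums. The adenine nucleotide and phosphate carriers summed to 40289 to 46624 normalised reads in WT and 37624 to 42425 in KO hosts. The iron, glycine and glutathione carriers summed to 21139 to 24073 and 20686 to 20997, which did not overlap. No other role sum of the family was without overlap in tumours, and 10.6% of all genes tested there were. Slc25a39, the largest of the iron, glycine and glutathione carriers, had 17120, 15140 and 15109 in WT and 14168, 14332 and 14350 in KO hosts. That difference was small and did not pass (log2 fold change -0.14, SE 0.10, edgeR adjusted p = 0.821). The aspartate and glutamate carriers summed to 6283 to 6808 in WT and 6521 to 6789 in KO hosts, and the citrate, dicarboxylate and oxoglutarate carriers to 4851 to 6038 and 5229 to 5549.

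Of the 17 members called in fat 16 were tested in tumours, with log2 fold changes from -1.57 for Slc25a23 to 0.17 for Slc25a24. Slc25a13 had 2531, 2273 and 2839 in WT and 2502, 3020 and 2913 in KO hosts (0.14, 95% interval -0.14 to 0.43). Slc25a1 had 948.6, 818.2 and 724.2 in WT and 766.4, 662.6 and 719.6 in KO hosts (-0.21, 95% interval -0.53 to 0.11). Values of WT and KO tumours thus lay close together for both. Slc25a16 stood at 0.02 (95% interval -0.35 to 0.39) and Slc25a45 at -0.06 (-0.36 to 0.24). Slc25a35 was low in tumours, at 26.60 to 49.65 in WT and 29.19 to 40.47 in KO hosts. The difference between the effects in fat and in tumours was not tested. Of the lists of partner genes described for fat none had a member that passed in tumours, and of the relatives under other symbols Ucp2 had the smallest p (0.45, edgeR adjusted p = 0.552). Slc25a2, Slc25a18, Slc25a31, Slc25a34, Slc25a41 and Slc25a48 were too low to be tested in tumours.

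Ratios per kb were computed for 8 pairs of related carriers, of which 4 are plotted. In KO fat the ratios Slc25a13 to Slc25a12, Slc25a24 to Slc25a23 and Slc25a37 to Slc25a28 lay above all WT fat libraries and on the side of the tumour libraries. For Slc25a24 to Slc25a23 the tumours lay far higher still, at 128 to 1130. The ratio of Slc25a45 to Slc25a20, 1.14 to 1.81 in tumours, was also above WT in KO fat. The ratio of Slc25a10 to Slc25a11, 0.226 to 0.354 in tumours, was below WT in KO fat. The ratio of Slc25a5 to Slc25a4, the ADP/ATP carriers, was 0.526 to 0.656 in WT fat and 0.713 to 1.08 in KO fat, but 0.358 to 0.48 in tumours. The ratio of the glutathione carriers Slc25a39 to Slc25a40 overlapped in fat, at 42.8 to 57.3 in WT and 36.7 to 50.2 in KO libraries, and was 120 to 179 in tumours. The ratio of the pyrimidine nucleotide carriers Slc25a36 to Slc25a33 overlapped as well, at 1.08 to 1.51 in WT and 1.04 to 2.03 in KO fat, and was 0.0483 to 0.118 in tumours. These ratios describe the libraries and were not tested, since their members were already tested one by one.

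**Figure D4:**
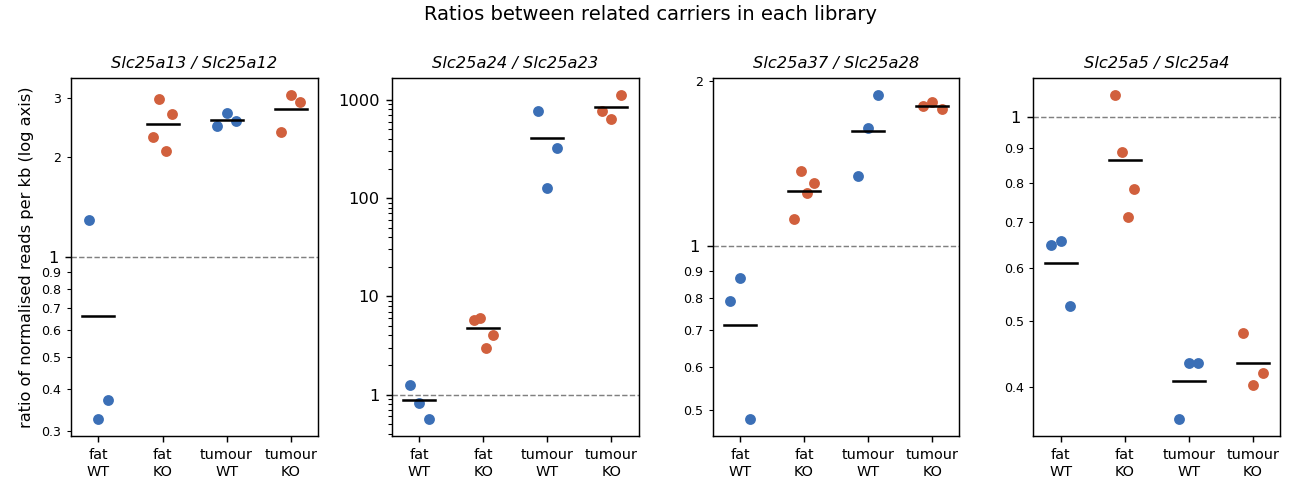
Ratio of normalised reads per kb (log axis) between related carriers in each library, with WT in blue, KO in orange, a black bar at the group mean and a dashed line at 1. KO fat lies above WT fat in all 4 panels, and in the panel of Slc25a5 and Slc25a4 the tumours lie under both.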

How the data were processed

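The members, role groups, partner and marker lists were chosen with earlier results of these data known. Libraries were made with a stranded mRNA kit from about 500 ng of RNA, per the labels' protocols. The submitters' processing notes name CASAVA, TopHat, DESeq2 and build mm10, while the counting tool and its strand setting are not given in the sources used here. For tumours the authors deposited a raw read count per gene. Its 5 summary lines without a gene, 66.7% to 72.2% of entries, were left out. For fat the authors deposited a normalised signal, each gene's reads over the size factor of its library, and 117220 of 117220 values above 0 were whole reads within 0.001 once rescaled. Tumour counts were tested with edgeR 4.0.16 (TMM, filterByExpr, quasi-likelihood), and printed tumour values are normalised reads on that TMM scale. For fat, limma 3.58.1 (trend) was run in R 4.3.3 on log2(value + 1) of genes that reached 10 in 3 libraries or more. This scale understates changes of low genes. All tests were two-sided, with Benjamini-Hochberg adjustment over all genes tested in the tissue and a threshold of 0.05. On simulated data limma in fat recovered 53.2% of 109 2-fold and 100% of 91 4-fold changes, with 6.29% of its calls false. In tumours edgeR recovered 92.8% of 97 2-fold changes (7.21% of calls false), and DESeq2 90.7% (12.4% of calls false). The simulation gave all genes the same spread between libraries and changed only these few, all above about 50 reads. In the real fat data 34.2% of genes were called. The rates are therefore not those of the real tests, and they do not cover low members. A member that did not pass in fat is therefore not shown to be unchanged. Fat members that passed with a mean of 50 or more, the 5 tumour members of smallest p and the 3 partners of smallest p per list are described, and the rest are named in brief. Coordinates and exon lengths are from GENCODE M21 on GRCm38. No 2 libraries of a group agreed within counting noise. The results of 1 member and 1 partner gene are counted in the totals but are not reported here.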

Additional observations from a re-analysis of the deposited data

Results flagged for a closer look

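Each of 38 members was screened for a KO fat library that stood apart from the other 3, by the gap to its nearest neighbour as a share of the range, set against Dixon's 95% critical value for 4 libraries. KO1 stood apart for Slc25a29, at 59.61 against 45.31 to 47.36 (gap 0.857 of the range), and for Slc25a33, at 188.8 against 101.7 to 116.5 (gap 0.83). Chance alone flags about 1 in 20 groups, and neither gene passed limma in fat.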

How the results depend on the processing

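Across 17 members called in fat and 12 alternatives (pseudocounts of 0.5 and 5, no filter, TMM rescaling, edgeR 4.0.16 on recovered reads, and each library left out), 181 of 204 refits kept the call, 23 lost it and 0 reversed. The groups of all 17 did not overlap, so a new pseudocount, no filter or a library left out could not reverse a sign. The 17 were also chosen by their call in these same libraries. edgeR on recovered reads also called 17 members, 16 of them shared, with Slc25a26 in place of Slc25a34. Leaving out 1 library gave 5 to 7 members higher and 6 to 13 lower, and 3065 to 5193 genes in all against 4947. The lowest member count came without KO2, and the count of 3065 genes without WT3. In tumours every alternative called 0 members, while genes called were 51 by DESeq2, 22 without a filter on low counts and 0 to 21 on leaving out 1 library, against 0. They were 9 without KO tumour 3 and 21 without WT tumour 3. With the replicate number as a block, edgeR called 0 genes and 0 members in tumours. The labels do not say that a number marks a shared animal, litter or day, so the numbers were not taken as pairs. Deviations from the group means had correlations of -0.229, 0.0118 and -0.22 between tumours of the same number. With so few libraries in a group, these correlations cannot exclude pairing. No paired analysis of fat was run, because the labels name no pairs of WT and KO libraries. WT fat columns could also not be tied to replicate numbers. TMM rescaling moved the fat median of all genes by 0.02 on the log2 scale. Among the members called in fat, wide intervals belonged to Slc25a43 and Slc25a34, which had few reads (SE 0.40 and 0.47). Slc25a13, whose WT libraries were spread, had a wide interval as well (SE 0.46).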
